A study of Mus musculus with 48 samples.

Results

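The glutathione peroxidases Gpx1, Gpx2, Gpx3, Gpx4, Gpx7 and Gpx8 were followed through the lungs of 48 adult mice. These 6 genes were chosen by name from the 47561 genes listed, and all 6 passed the filter on low values in every comparison. The mice came from the inbred strains C3H/HeN (C3H, written C3H/hen in the labels) and C57Bl/6 (C57B, C57Bl/6N in the study's methods), and neither carried a transgene or a deletion named in the labels. Each mouse received 1 intraperitoneal injection of saline or of aurothioglucose (ATG) at 25 mg/kg and then spent 96 h in room air or in hyperoxia, with oxygen above 95%. With both sexes this gave 16 groups of 3 mice (C3HM, C3HF, C57BM and C57BF, each with saline or ATG and room air or hyperoxia), and each library is polyA RNA from lung tissue of 1 mouse. ATG is a gold compound that inhibits thioredoxin reductase. The study's stated question is how sex and strain bear on the lung, and the groups also allow the injection and the air to be compared.

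Glutathione peroxidases reduce hydrogen peroxide and lipid hydroperoxides with electrons from glutathione or another thiol, and lung cells meet such peroxides in excess when oxygen is high. Gpx1 is the abundant enzyme of the cytosol and mitochondria, Gpx2 is an epithelial enzyme and a known target of the transcription factor Nrf2, Gpx3 is secreted and circulates in plasma, and Gpx4 reduces phospholipid hydroperoxides within membranes and holds back ferroptosis. Gpx7 and Gpx8 reside in the endoplasmic reticulum, where they pass oxidizing power from peroxide to protein disulfide isomerases. Gpx1, Gpx2, Gpx3 and Gpx4 carry selenocysteine, which the ribosome inserts at a UGA codon that otherwise means stop, while Gpx7 and Gpx8 carry cysteine in its place.

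The coding sequence around the active site divides the 6 genes in this way, and it is shown because the enzymes' chemistry turns on that codon. The capitals mark the codon of the catalytic residue, with 8 codons on each side, 5′ to 3′ on the coding strand (GENCODE M21 transcripts on GRCm38, the same assembly as mm10).
Gpx1: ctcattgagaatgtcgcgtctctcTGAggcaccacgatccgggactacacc
Gpx2: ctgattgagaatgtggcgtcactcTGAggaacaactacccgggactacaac
Gpx3: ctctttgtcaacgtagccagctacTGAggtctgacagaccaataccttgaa
Gpx4: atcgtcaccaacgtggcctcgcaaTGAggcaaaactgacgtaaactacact
Gpx7: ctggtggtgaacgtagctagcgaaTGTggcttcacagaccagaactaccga
Gpx8: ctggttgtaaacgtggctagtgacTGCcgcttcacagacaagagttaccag
The codon is TGA, read as selenocysteine, in Gpx1, Gpx2, Gpx3 and Gpx4, and a cysteine codon (TGT or TGC) at the aligned position of Gpx7 and Gpx8. Of the translated coding sequences, Gpx1 and Gpx2 were the most alike, with 63.16% identical residues over the shorter one. The next pairs were Gpx1 and Gpx3 with 48.76% and Gpx7 and Gpx8 with 48.39%. The least alike pair was Gpx1 and Gpx8, with 25.87%.

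The Gpx1 stretch lies at chr9:108339427-108339477 on the plus strand, in exon 1 of 2, and the codon is number 47 of 201 (gene ENSMUSG00000063856). The Gpx2 stretch lies at chr12:76795232-76795282 on the minus strand, in exon 1 of 2, with the codon at number 40 of 190 (ENSMUSG00000042808). The Gpx3 stretch runs from chr11:54907232 to 54908542 on the plus strand across an intron, with codon 73 of 226 in exon 2 of 5 (ENSMUSG00000018339). The Gpx4 stretch lies at chr10:80054713-80054763 on the plus strand, in exon 3 of 7, with the codon at number 73 of 197 (ENSMUSG00000075706). Those of the cysteine enzymes lie on the minus strand in exon 2 of 3, at chr4:108403406-108403456 with codon 56 of 186 for Gpx7 (ENSMUSG00000028597), and at chr13:113045637-113045687 with codon 79 of 209 for Gpx8 (ENSMUSG00000021760). Of each gene's 30-base stretches, 39.21% in Gpx4 and 9.863% in Gpx2 also occur in another annotated gene, mainly the pseudogenes Gpx4-ps2 and Gpx2-ps1, so that reads could have been divided there. The share was 0.6071% for Gpx3 and 0 for Gpx1, Gpx7 and Gpx8. The antioxidant response element core TGACNNNGC was searched on both strands from 250 bases before to 50 after the RefSeq start sites. None of the 6 genes had it in any window, against 13.99% of all 27025 genes and 12.39% of all 32851 such windows.

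All values are FPKM, fragments counted per transcript length and per mapped fragments of the library, so levels can be set side by side between genes of different length. Their sum per mouse ran from 510933 to 748290, and the correlation of log2 values within a group from 0.9385 to 0.9812. Mice 1 and 3 of C3HM saline room air stood apart from mouse 2 of that group. Leaving out mouse 2 raised the genes called for sex in room air from 104 to 3640, and the values without mice 1 and 3 are given beside the results named here that changed with them. All 5 markers each of alveolar type 2, alveolar type 1, ciliated, endothelial and fibroblast cells were detected, as a lung should show, and Alas2 of the erythroid list was listed at 0 in all 48 mice. In whole tissue, fewer cells of a type and less RNA per cell cannot be told apart.

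In saline mice in room air, Gpx3 and Gpx1 were by far the most abundant members. The lowest, median and highest FPKM of the 12 mice were 416, 673 and 1090.0 for Gpx3, 469.7, 551 and 664 for Gpx1, and 82.4, 97.4 and 124 for Gpx4. They were 43.9, 59.1 and 86.9 for Gpx8, 3.75, 25.6 and 41.3 for Gpx2, and 11.8, 17.4 and 29.2 for Gpx7. Each gene was compared with the next in this order within the same mouse (exact sign-flip permutation test, two-sided, 5 pairs adjusted together). The order itself was read from the same mice. Gpx3 exceeded Gpx1 in 9 of 12 mice, 6 of 6 males and 3 of 6 females, by 1.20 times on the geometric mean (exact permutation p = 0.0215, adjusted 0.0269). Gpx1 exceeded Gpx4 by 5.46 times, Gpx4 exceeded Gpx8 by 1.66 times and Gpx8 exceeded Gpx2 by 2.99 times, each in 12 of 12 mice (exact p = 0.000488, adjusted 0.000814, for each). Gpx2 and Gpx7 did not differ beyond the spread between mice, with Gpx2 higher in 7 of 12 (ratio 1.14, exact p = 0.604). The remaining family members Gpx5 and Gpx6 were close to silent: Gpx5 was listed at 0 in 48 mice and Gpx6 in 46, with at most 0.273 FPKM.

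**Figure D1:**
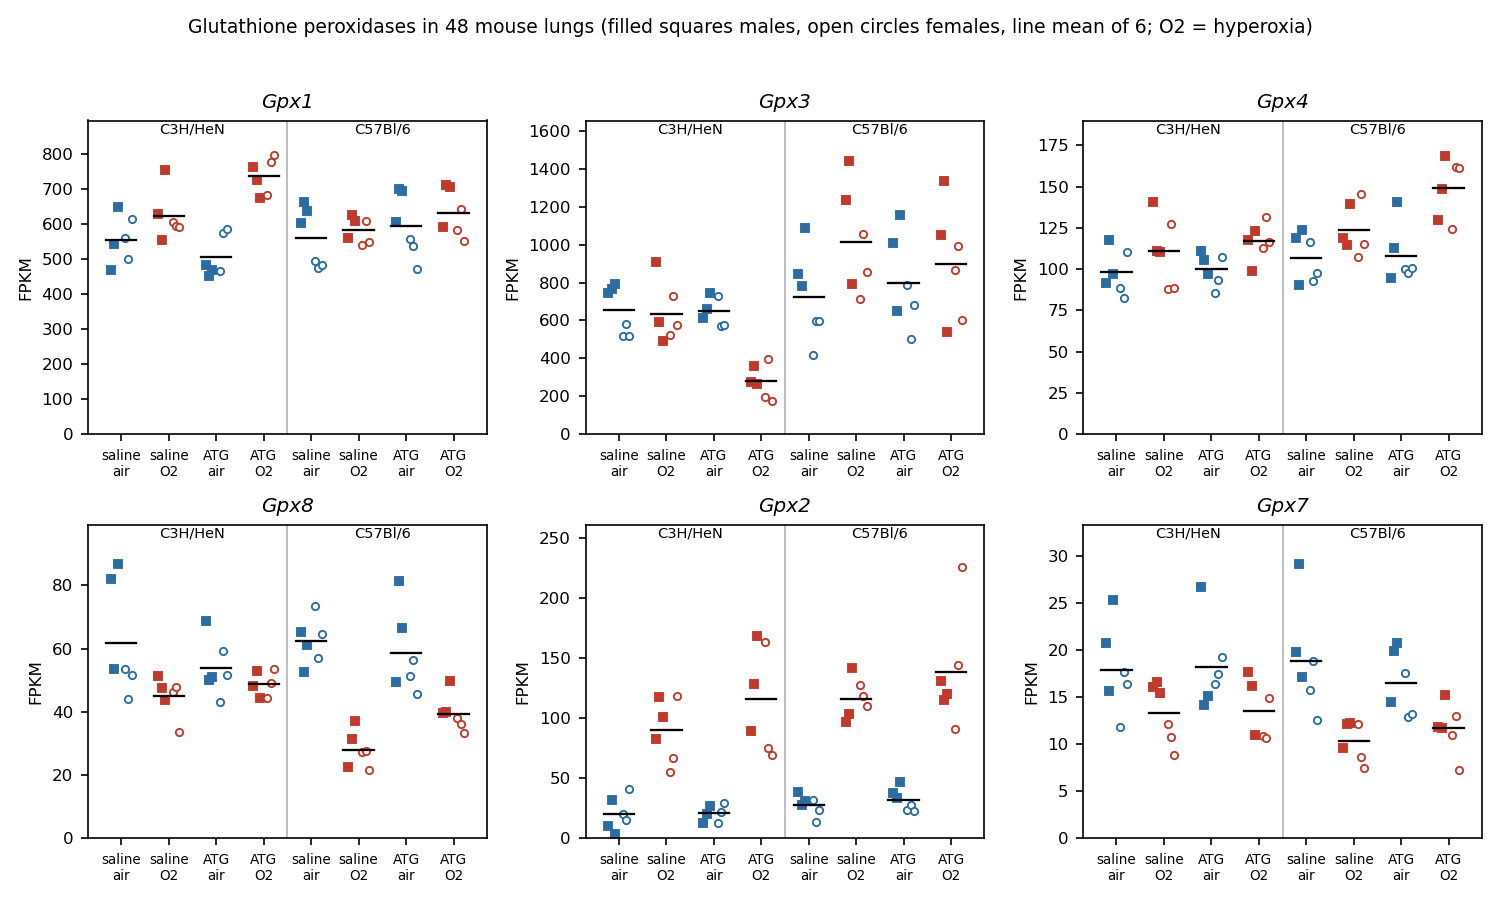
FPKM of each glutathione peroxidase (vertical axes, 1 panel per gene) in every mouse, by strain, injection and air, with filled squares for males, open circles for females and a line at the mean of 6 mice. Gpx2 is higher in every hyperoxia mouse (55.2 to 226) than in any room air mouse (3.75 to 47.1), and Gpx3 is lowest in C3H mice given ATG in hyperoxia (176 to 398).

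Hyperoxia after saline changed 3 of the 6 genes, against 60.1% of all 16321 genes tested. Gpx2 rose, and Gpx7 and Gpx8 fell. Changes are given as the difference of log2(FPKM + 1), hyperoxia minus room air, with the standard error of limma and p-values adjusted over all genes tested. Gpx2, the epithelial enzyme, had a lowest, median and highest of 3.75, 25.6 and 41.3 FPKM in the 12 room air mice and of 55.2, 107 and 142 in the 12 hyperoxia mice. The groups did not overlap, and the mean in hyperoxia was 4.30 times that in room air (difference 2.22 ± 0.24, adjusted p = 1.42e-07). Without C3HM saline room air mice 1 and 3, which held the lowest Gpx2 levels, 10.1 and 3.75, the rise was 1.86.

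Both members of the endoplasmic reticulum moved the other way. Gpx8 had a lowest, median and highest of 43.9, 59.1 and 86.9 in room air and of 21.6, 35.4 and 51.3 in hyperoxia, where 8 of 12 mice lay below every room air mouse (difference −0.78 ± 0.10, adjusted p = 7.37e-07). Gpx7 went from 11.8, 17.4 and 29.2 to 7.5, 12.1 and 16.6, with 5 of 12 hyperoxia mice below every room air mouse (difference −0.59 ± 0.11, adjusted p = 9.73e-05). Without C3HM mice 1 and 3 the differences were −0.67 for Gpx8 and −0.50 for Gpx7. The means of both genes were lower in hyperoxia in all 8 pairs of groups matched for strain, sex and injection. Those of Gpx2 and Gpx4 were higher in 8 of 8, that of Gpx1 in 7 and that of Gpx3 in 5.

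The most abundant members did not pass the test after saline. The difference was 0.23 for Gpx3 (95% interval −0.01 to 0.47, adjusted p = 0.0920), 0.19 for Gpx4 (0.01 to 0.37, adjusted p = 0.0626) and 0.12 for Gpx1 (−0.01 to 0.25, adjusted p = 0.113). Under quantile normalization those of Gpx4 and Gpx1 turned to −0.01 and −0.05. For Gpx4 the test was passed in 7 of 24 fits that left out 1 mouse and in 1 fit of all 48 mice, and for Gpx3 in 2 of 24 fits that left out 1 mouse. The response did not depend detectably on sex: the test of the difference between the male and female responses called no member (0.0368% of all genes called, 0 members at an unadjusted p under 0.05), with values from −0.40 for Gpx3 to 0.40 for Gpx2, the latter −0.32 without C3HM mice 1 and 3.

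The fall of Gpx8 differed in size between the strains. In C57B saline mice Gpx8 went from a lowest, median and highest of 52.8, 62.9 and 73.5 in room air to 21.6, 27.5 and 37.1 in hyperoxia, with no overlap (difference −1.15 ± 0.14, adjusted p = 6.46e-07). In C3H saline mice it went from 43.9, 53.6 and 86.9 to 33.8, 46.9 and 51.3, and the groups overlapped (difference −0.42 ± 0.14, adjusted p = 0.0203). The C3H response minus the C57B response was 0.73 ± 0.19 (adjusted p = 0.0184), a test that called 11.5% of all genes. Gpx8 was the 1 of 6 members called there. Without C3HM mice 1 and 3 the difference between strains was 0.95 (adjusted p = 0.00677) and the difference within C3H was −0.20 (adjusted p = 0.349), a call also lost without C3HM room air mouse 1 or 3 or C3HF hyperoxia mouse 33 (adjusted p = 0.0510, 0.0601 and 0.0619). With median ratio scaling the difference between strains was 0.54 (adjusted p = 0.0879). The median of all genes in this test was 0.15 as deposited and 0.00 after median ratio scaling.

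Among C57B saline mice, Gpx2, Gpx3, Gpx7 and Gpx8 were called, 4 of 6 members against 55.5% of all genes. The secreted enzyme Gpx3 rose, from a lowest, median and highest of 416, 692 and 1090.0 to 714, 956 and 1442 (difference 0.51, adjusted p = 0.0119), though with quantile normalization the rise was 0.35 and missed the threshold (adjusted p = 0.122). Gpx7 fell from a median of 18.0 to 10.9 without overlap of the groups (difference −0.78, adjusted p = 0.000225), and Gpx2 rose by 2.09 (adjusted p = 3.28e-05). In C3H saline mice Gpx2, Gpx7 and Gpx8 were called, 3 of 6 members against 37.8% of all genes. There Gpx2 rose by 2.36 (adjusted p = 2.21e-05; 1.63 without C3HM mice 1 and 3), and Gpx7 had a difference of −0.40 (adjusted p = 0.0474) that became −0.22 (adjusted p = 0.401) without them. The Gpx7 call in C3H was also lost in 14 of 24 fits without 1 mouse (adjusted p up to 0.129, without C3HM saline room air mouse 3). Gpx3 had a difference of −0.05 in C3H (interval −0.39 to 0.29). The difference between strains did not pass the test for Gpx3 (−0.56, interval −1.05 to −0.08, adjusted p = 0.116), for Gpx7 (0.39, adjusted p = 0.251) or for Gpx2 (0.27, adjusted p = 0.751). The difference for Gpx3 passed it without C3HM saline hyperoxia mouse 7 (adjusted p = 0.0491) or C57BM saline hyperoxia mouse 21 (adjusted p = 0.0374).

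**Figure D2:**
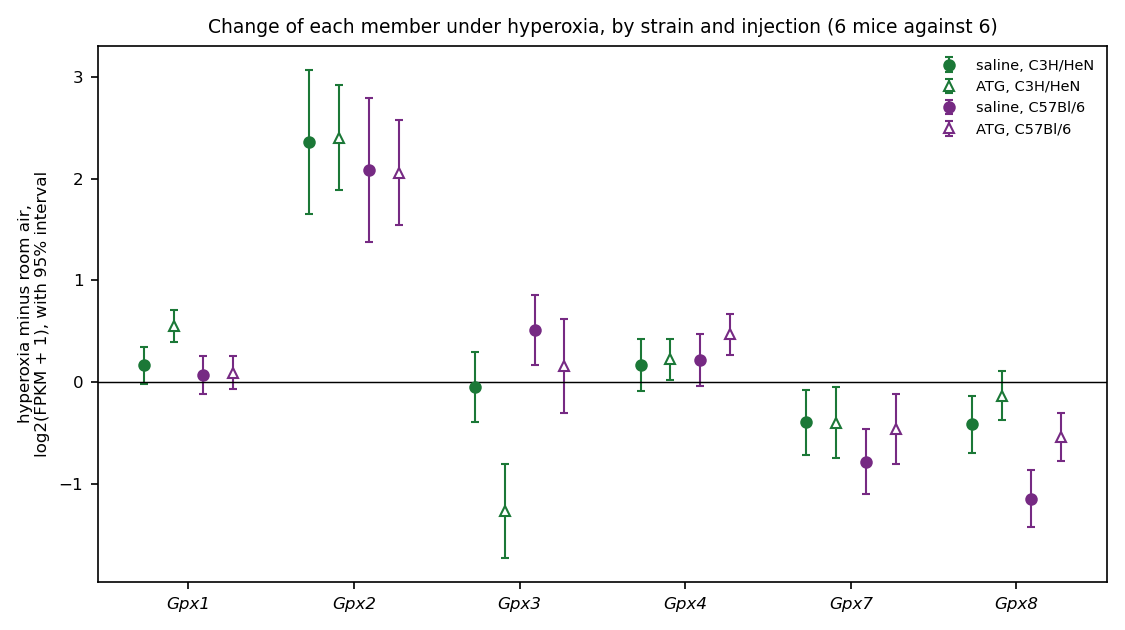
Difference of log2(FPKM + 1), hyperoxia minus room air (vertical axis), for each member in C3H and C57B mice given saline or ATG, 6 mice against 6, with 95% intervals of the limma fits. Gpx2 lies near 2 or above in all 4 settings, Gpx3 at −1.27 stands below 0 in C3H ATG mice, and Gpx8 is lowest in C57B saline mice at −1.15.

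In the 24 mice given ATG, which are not the mice of the saline comparison, hyperoxia changed all 6 members, against 61.8% of all genes. Gpx2 rose by 2.23 ± 0.17 (adjusted p = 8.13e-10), from a lowest, median and highest of 12.7, 25.4 and 47.1 to 69.4, 124 and 226, again with no overlap. Gpx1 rose by 0.32 (adjusted p = 3.35e-05) and Gpx4 by 0.35 (adjusted p = 0.000205). These rises depended on the scaling, since with quantile normalization they were 0.06 (adjusted p = 0.283) and 0.11 (adjusted p = 0.152). Gpx3 fell by 0.55 (adjusted p = 0.00441), Gpx7 by 0.43 (adjusted p = 0.00305) and Gpx8 by 0.34 (adjusted p = 0.00115).

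The fall of Gpx3 differed between the strains, in comparisons by strain that were added after these values were seen. C3H ATG mice had 571, 636 and 747 FPKM of Gpx3 (lowest, median, highest) in room air and 176, 270.5 and 398 in hyperoxia, with all 6 hyperoxia mice below all 6 room air mice (difference −1.27 ± 0.22, adjusted p = 8.47e-05). C57B ATG mice had 503, 734 and 1158 in room air and 539.7, 928 and 1337 in hyperoxia, and the groups overlapped (difference 0.16, adjusted p = 0.570). The C3H response minus the C57B response was −1.43 ± 0.31 on the log2 scale (adjusted p = 0.00498). Gpx1 was the second of the 2 members whose response differed by strain under ATG, in a test that called 13.3% of all genes. It rose in C3H mice from 451, 476 and 585 to 675, 745 and 797, without overlap (difference 0.55 ± 0.08, adjusted p = 6.63e-06; 0.22 with quantile normalization), and had a difference of 0.09 in C57B (adjusted p = 0.325). The strains differed by 0.46 ± 0.11 for Gpx1 (adjusted p = 0.00845). In the same test 3 of 5 alveolar macrophage markers had a lower response in C3H and 4 of 5 neutrophil markers a higher one (list medians −0.66 and 2.55, against 0.05 over all genes), and their part in these results was not tested.

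These were among 3 members called in C3H ATG mice (Gpx1, Gpx2 and Gpx3, against 47.9% of all genes) and 4 called in C57B ATG mice (Gpx2, Gpx4, Gpx7 and Gpx8, against 56.2%). Gpx4, the phospholipid hydroperoxide enzyme, rose in C57B ATG mice from a median of 101 to 155 (difference 0.47, adjusted p = 0.000403; 0.22 with quantile normalization), and had 0.22 in C3H ATG mice (adjusted p = 0.0681). Gpx8 fell by 0.54 in C57B (adjusted p = 0.000456) and had −0.13 in C3H (adjusted p = 0.362), but the difference between strains, 0.41, did not pass the test (adjusted p = 0.101). Nor did the differences between strains for Gpx4 (−0.25, adjusted p = 0.254), Gpx2 (0.34, adjusted p = 0.564) and Gpx7 (0.07, adjusted p = 0.880). Gpx7 had −0.47 in C57B (adjusted p = 0.0212) and −0.40 in C3H (adjusted p = 0.0530). The former call was lost without C57BM ATG room air mouse 18, C57BF ATG room air mouse 40 or C57BF ATG hyperoxia mouse 48 (adjusted p = 0.0526, 0.0594 and 0.0709). Gpx2 rose in both, by 2.40 in C3H (adjusted p = 1.24e-07) and 2.06 in C57B (adjusted p = 6.43e-07).

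In room air no member passed the test for ATG, with 12 mice against 12 (0.0185% of all genes called, 0 members at an unadjusted p under 0.05), and the differences, ATG minus saline, ran from −0.14 for Gpx8 to 0.25 for Gpx2, with 95% intervals between −0.34 and 0.77. Without C3HM saline room air mice 1 and 3 these were −0.03 for Gpx8 and −0.11 for Gpx2. Nor did the effect of ATG in room air differ by strain for any member (0% of genes called, 743 genes and 0 members at an unadjusted p under 0.05), with values from −0.23 for Gpx1 to 0.19 for Gpx7. Gpx2 had 0.05, and −0.68 without C3HM mice 1 and 3.

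In hyperoxia, ATG mice had less Gpx3 and more Gpx8 than saline mice, 2 of 6 members against 5.47% of all genes. For Gpx3 the difference was −0.71 ± 0.17 (adjusted p = 0.0218). The 3 C3HM saline hyperoxia mice had 910.5, 590.4 and 490.1 FPKM and the 3 C3HF mice 523, 727 and 574, whereas the ATG mice had 274, 360.5 and 266 (C3HM) and 198, 398 and 176 (C3HF). Every C3H ATG mouse lay below every C3H saline mouse in hyperoxia. Taken by strain, comparisons added after these values were seen, the difference was −1.21 ± 0.24 in C3H (adjusted p = 0.00970, 2.65% of genes called, 1 member) and −0.20 in C57B (interval −0.70 to 0.30, adjusted p = 0.681). The difference between the strains themselves, −1.01, did not pass the test (adjusted p = 0.202), which called 0.416% of genes and no member, with 2 members, Gpx3 and Gpx8, at an unadjusted p under 0.05.

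For Gpx8 the difference in hyperoxia was 0.31 ± 0.08 (adjusted p = 0.0320), and it was lost with quantile normalization (0.26, adjusted p = 0.0600), with median ratio scaling (0.25, adjusted p = 0.0512) and without any 1 of 6 mice (adjusted p up to 0.0657, without C57BM ATG hyperoxia mouse 24). The other 5 were C3HM saline 8, C3HM ATG 10, C3HF ATG 36, C57BF saline 45 and C57BF ATG 47, all in hyperoxia. In C57B mice Gpx8 had a lowest, median and highest of 21.6, 27.5 and 37.1 after saline and of 33.2, 38.8 and 49.6 after ATG, with 4 ATG mice above every saline mouse (difference 0.50 ± 0.11, adjusted p = 0.0426, 0.864% of genes called, 1 member). That call was lost in 18 of 24 fits without 1 mouse (adjusted p up to 0.121). C3H mice had a difference of 0.12 (adjusted p = 0.661), and the strains did not differ by the test (−0.38, adjusted p = 0.320). Gpx1 was 0.18 higher after ATG in hyperoxia without passing the threshold (adjusted p = 0.0610), and Gpx4 had 0.18 (adjusted p = 0.198), Gpx2 0.26 (adjusted p = 0.387) and Gpx7 0.09 (adjusted p = 0.677).

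The response to hyperoxia itself differed between ATG and saline mice for Gpx3 and Gpx8, 2 of 6 members against 2.77% of all genes. The ATG response minus the saline response was −0.79 ± 0.20 for Gpx3 (adjusted p = 0.0298) and 0.45 ± 0.13 for Gpx8 (adjusted p = 0.0479). These 2 calls were close to the threshold. Without C3HM saline room air mice 1 and 3 they were −0.79 (adjusted p = 0.0512) and 0.34 (adjusted p = 0.139). The Gpx3 call was also lost without C3HF ATG room air mouse 28, C3HF ATG hyperoxia mouse 36 or C57BF saline room air mouse 37 (adjusted p = 0.0507, 0.0510 and 0.0519), and the Gpx8 call in 29 of 48 fits without 1 mouse (adjusted p up to 0.0821). The response of Gpx2 did not differ detectably by injection (0.01, interval −0.62 to 0.64, adjusted p = 0.993; 0.37 without C3HM mice 1 and 3), and Gpx1 had 0.20 (adjusted p = 0.148).

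Alveolar macrophage markers were lower, as Gpx3 was, in C3H mice after ATG in hyperoxia. Of the 5 markers (Marco, Chil3, Mrc1, Ear2 and Siglecf), none of which was at 0 in any mouse, 4 were lower after ATG in hyperoxia, with a median difference of −0.80 over the list against 0.05 over all genes, and all 5 were lower in C3H alone (median −1.27). Their summed FPKM had a lowest, median and highest of 252, 371 and 656 in C3H saline hyperoxia mice and of 87.1, 111 and 431 in C3H ATG hyperoxia mice, against 737, 1396 and 1772 in C57B saline and 662, 1142 and 1624 in C57B ATG hyperoxia mice. Chil3 had the highest median level of the 5 markers over the 48 mice, 260 FPKM, and so a large part in the sum. The medians of the others were 78.1 for Ear2, 18.9 for Mrc1, 11.1 for Marco and 3.09 for Siglecf. This sum and Gpx3 parted in some mice. C3HF ATG hyperoxia mouse 36 had the highest sum of its group, 431, and the lowest Gpx3 level of all 48 mice, 176. C57BM saline hyperoxia mouse 20 had the lowest sum of the C57B saline hyperoxia mice, 737, and the highest Gpx3 level of all 48 mice, 1442. C57BF saline hyperoxia mouse 43 had the highest sum of all 48 mice, 1772, and the lowest Gpx3 level of the C57B saline hyperoxia mice, 714. In C3H saline mice the sums went from between 147 and 320 in room air to between 252 and 656 in hyperoxia. Gpx3 had a difference of −0.05 there (interval −0.39 to 0.29). The part of these cells in the Gpx3 result was not tested.

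**Figure D3:**
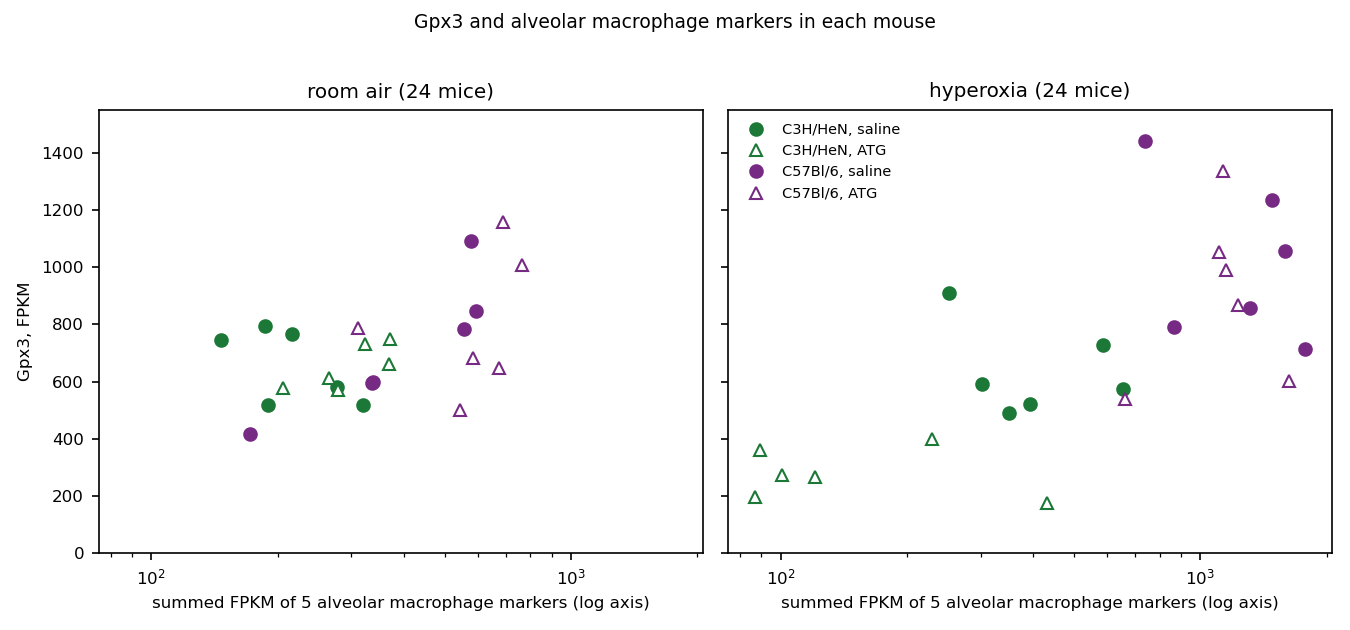
Gpx3 in FPKM (vertical axis) against the summed FPKM of 5 alveolar macrophage markers (horizontal log axis) in 24 room air and 24 hyperoxia mice, by strain and injection. In hyperoxia the 6 C3H ATG mice have the lowest Gpx3 levels (176 to 398), and 5 of them have marker sums from 87.1 to 229.9, below every other hyperoxia mouse.

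Between strains no member passed the test in saline room air mice. The differences, C3H minus C57B, lay between −0.68 for Gpx2 (0.05 without C3HM mice 1 and 3) and −0.00 for Gpx1 (11.8% of all genes called, 0 members at an unadjusted p under 0.05). Without C3HM mouse 2 of this group Gpx2 was called. In saline hyperoxia mice the strains differed in 2 of 6 members, against 28.2% of all genes. Gpx3 was lower in C3H, at 490.1, 582 and 910.5 (lowest, median, highest) against 714, 956 and 1442 in C57B, with overlap (difference −0.66 ± 0.19, adjusted p = 0.0235). That call was lost with quantile normalization (−0.55, adjusted p = 0.0611) and without any 1 of 5 mice, namely C3HM saline hyperoxia 8 and 9, C57BM saline hyperoxia 20, C3HF saline hyperoxia 31 and C57BF saline hyperoxia 44 (adjusted p up to 0.0572). Gpx8 was higher in C3H, at 33.8, 46.9 and 51.3 against 21.6, 27.5 and 37.1, with 5 of 6 C3H mice above every C57B mouse (difference 0.68 ± 0.13, adjusted p = 0.00342). Without C3HF saline hyperoxia mouse 33, Gpx2 and Gpx7 were called as well, in a fit that called 4733 genes against 4243.

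Between sexes Gpx3 was the member called, 1 of 6 against 0.669% of all genes, in saline room air mice. Males had 746, 789 and 1090.0 FPKM (lowest, median, highest) and females 416, 551 and 599, and the groups did not overlap (males minus females 0.64 ± 0.12, adjusted p = 0.0378). Of the marker lists, none of the alveolar macrophage genes passed this test, which is averaged over the strains, and 1 erythroid gene did. The summed macrophage markers ran from 556 to 595 FPKM in C57B males and from 172 to 337 in C57B females. In C3H they ran from 147 to 216 in males and from 190 to 320 in females. Their part in the Gpx3 difference was not tested. The Gpx3 call held in 1 of 12 fits that left out 1 mouse, the one without C3HM mouse 2, and missed the threshold in the other 11 (adjusted p up to 0.126, without C3HF mouse 25), as it did without C3HM mice 1 and 3 (0.63, adjusted p = 0.135). Without C3HM mouse 2, Gpx7 and Gpx8 were called beside Gpx3, in a fit that called 3640 genes against 104. In comparisons added after these values were seen, the sexes were closer: males exceeded females in Gpx3 by 0.30 in ATG room air mice (adjusted p = 0.376, 1.63% of genes called) and by 0.24 in hyperoxia (adjusted p = 0.469, 0.681% of genes called). The members ran from 0.07 for Gpx1 to the 0.30 of Gpx3 in ATG room air mice, and in hyperoxia from 0.05 for Gpx4 to 0.35 for Gpx7. No member was called in either, with 0 and 1 members at an unadjusted p under 0.05. The latter was Gpx7 (adjusted p = 0.0945), after 0.42 in saline room air (adjusted p = 0.175; 0.25 without C3HM mice 1 and 3). Gpx7 was called in hyperoxia without C57BM saline hyperoxia mouse 19, in a fit that called 1407 genes against 108. The strain by sex test called no gene, with 2538 genes and 1 member, Gpx8, at an unadjusted p under 0.05 (0% called; Gpx8 0.66, adjusted p = 0.257). Its values ran from −1.56 for Gpx2 to the 0.66 of Gpx8. Without C3HM mouse 2, Gpx2 and Gpx8 were called, in a fit that called 2741 genes. Without C3HM mice 1 and 3 these 2 members had −0.10 and 0.23.

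The make-up of the family shifted with these changes. In saline room air mice the 6 genes summed to between 1148 and 1960.5 FPKM. In C3H saline room air mice Gpx3 took 46.2% ± 5.39 (SD, n = 6) of that sum and Gpx1 39.7% ± 4.90, and Gpx2 took 1.49% ± 1.0. In C3H ATG hyperoxia mice Gpx1 took 56.4% ± 4.77, Gpx3 21.0% ± 5.21 and Gpx2 8.93% ± 3.67, with a sum of 1213 to 1441. Gpx1 was above Gpx3 in each of these 6 mice. In C57B ATG hyperoxia mice, Gpx3 took 47.1% ± 9.10 and Gpx1 34.3% ± 5.22, and in C57B saline hyperoxia mice Gpx3 had its largest share, 53.3% ± 6.79. No test was run on shares, since they follow from the levels.

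**Figure D4:**
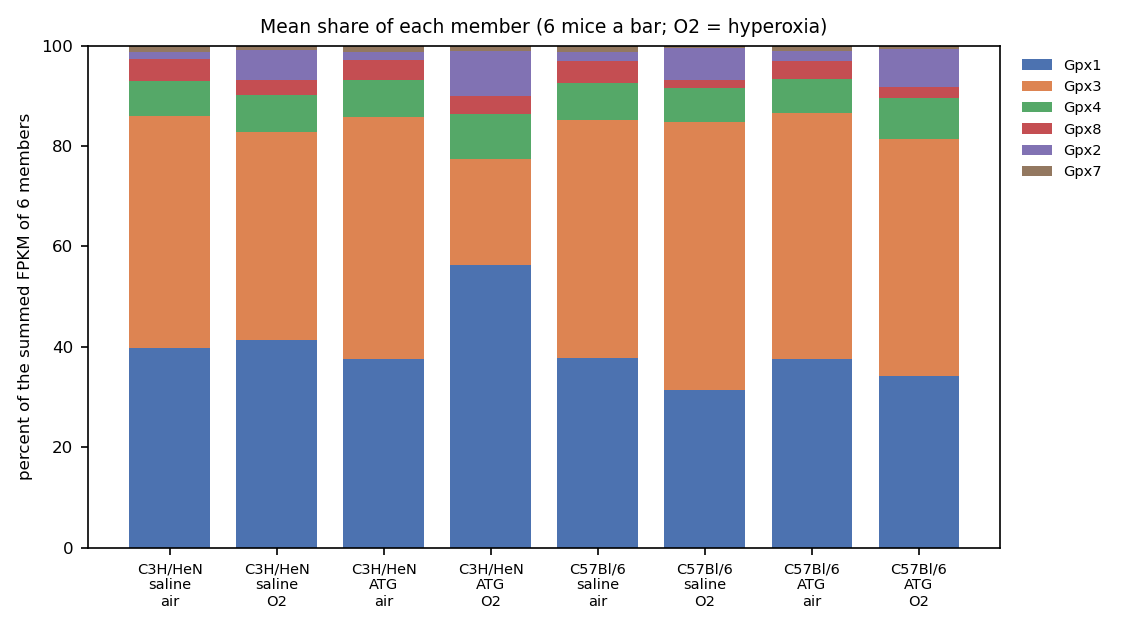
Mean share of each member in the summed FPKM of the 6 genes, in percent (vertical axis), for each strain, injection and air, with 6 mice a bar. Gpx1 and Gpx3 make up most of every bar, and the C3H ATG hyperoxia bar differs by its small Gpx3 part (21.0%) and large Gpx1 part (56.4%).

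In saline hyperoxia mice 8 of 9 genes of glutathione synthesis, recycling, precursor import and breakdown rose and none fell, with a median of 1.32 against 0.01 over all genes. Of all 16321 genes tested, 5192 rose. Glutathione is a thiol from which enzymes of the family draw electrons. The largest were Gclc, which catalyses the first step of glutathione synthesis (2.62), Slc7a11 and Slc3a2, the subunits of the cystine importer (2.37 and 1.65), and Chac1, which degrades glutathione (1.64). Of 7 Nrf2 targets and regulators 6 rose (median 1.61), led by Srxn1 (2.23), Hmox1 (2.14), Txnrd1 (2.11) and Nqo1 (1.61). Among other peroxide-removing enzymes 7 of 10 tested rose and 2 fell (median 0.31), with Srxn1 and Txnrd1 at the top and catalase (Cat, −0.94) and Prdx2 (−0.74) as the falls.

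Of 7 oxidative folding partners of Gpx7 and Gpx8, 4 fell and 2 rose (median −0.40), where 4611 of all 16321 genes fell and 5192 rose: Pdia4 (−0.87), Pdia6 (−0.65) and Pdia3 (−0.61), all protein disulfide isomerases, were lower, and Ero1l, an oxidase of those isomerases, was higher (0.59). Of 7 genes for selenocysteine synthesis and incorporation 4 rose and 1 fell (median 0.25), with Trnau1ap (0.49), Eefsec (0.47) and Sephs2 (0.47) higher and Selenop, which carries selenium in plasma, lower (−0.44). In the lipid peroxidation context of Gpx4, 2 of 6 genes tested rose (median 0.21), a share near that of all genes, namely Gch1 (0.90) and Lpcat3 (0.25). After ATG in hyperoxia, where 5.47% of all genes were called, the count was 0 of 7 Nrf2 targets and regulators, 1 of 9 in the glutathione list, 1 of 10 other peroxide-removing enzymes, 1 of 6 in the lipid list and 2 of 7 each for oxidative folding and selenocysteine incorporation, all of them higher.

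**Figure D5:**
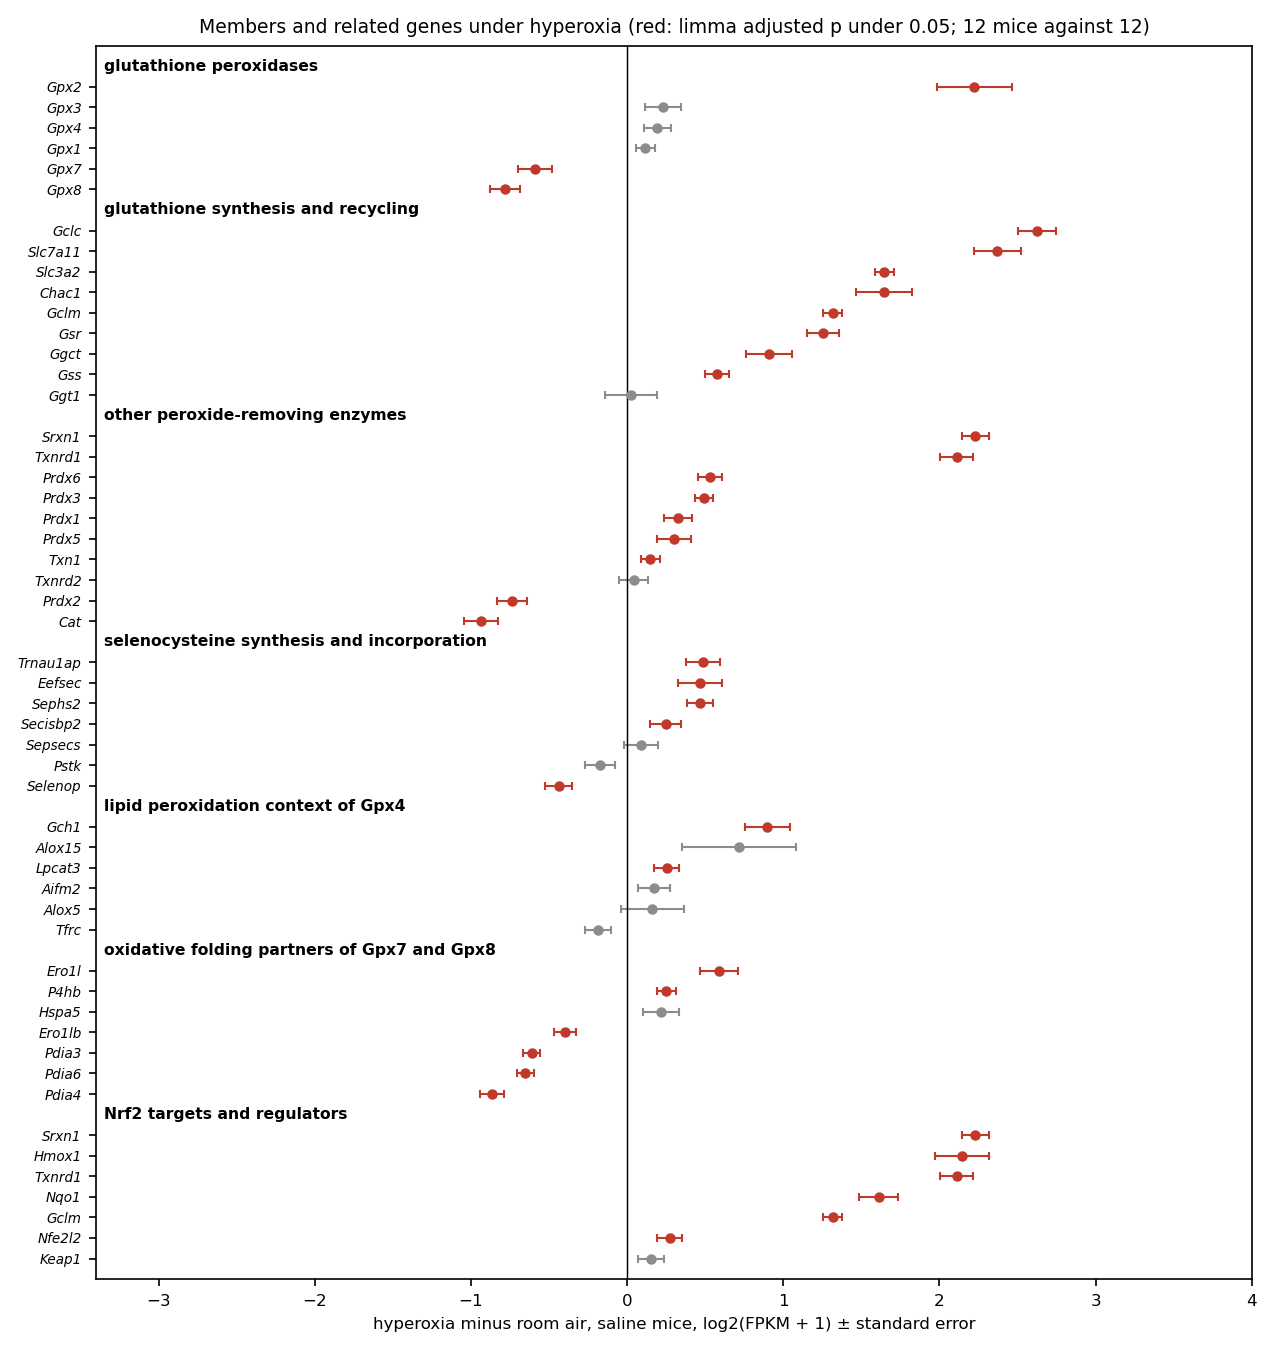
Difference of log2(FPKM + 1), hyperoxia minus room air in saline mice (horizontal axis, with standard errors), for the 6 members and the genes of related lists, 12 mice against 12, with red for an adjusted p under 0.05. Gpx2 (2.22) has a value near those of Gclc, Slc7a11, Srxn1, Hmox1 and Txnrd1. Gpx7 (−0.59) and Gpx8 (−0.78) have values near those of Pdia3, Pdia6, Pdia4, Prdx2 and Cat.

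Cell type markers moved as well in saline hyperoxia mice, where 60.1% of all 16321 genes were called, 4611 lower and 5192 higher. Of 5 genes in each list, 4 fell and 1 rose for alveolar type 2 cells, 3 fell for alveolar type 1 cells, 4 fell for club cells and 4 for ciliated cells, 2 fell and 1 rose for endothelium, and 1 rose for fibroblasts. All 5 neutrophil markers rose, 3 alveolar macrophage markers rose and 2 fell, all 5 cardiac muscle markers fell, and 4 of 4 erythroid markers tested fell. The summed alveolar type 2 markers went from 25381 to 48867 FPKM in room air to 5697 to 21494 in hyperoxia. The summed fibroblast markers ran from 296 to 546 FPKM in room air and from 338 to 609.6 in hyperoxia. The part of these shifts in the changes of Gpx2, Gpx7 and Gpx8 was not tested.

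Over all 48 mice, the genes whose log2 values followed each member most closely were found among the 16993 others tested. The values below are Pearson correlations, with that of the deviations from the 16 group means in second place, and mice of a group share strain, sex, injection and air. They were highest for Gpx2, with Idh3a (0.943 and 0.773), Cxcl17 (0.943 and 0.746) and Txnrd1 (0.937 and 0.660). Gpx8 was followed by Mcee (0.888 and 0.643), Uba7 and Lamtor2, Gpx7 by Fis1 (0.820 and 0.556), Vamp5 and Gng11, and Gpx3 by Cdkn1c (0.830 and 0.609), RP23-124B2.7 and Cyp2d22. Gpx1 and Gpx4 had the weakest leading values, with Tmem147 (0.782 and 0.558), Ufc1 and Gabarap for Gpx1 and Polr1c (0.774 and 0.432), Echs1 and Siva1 for Gpx4. Within the family, Gpx7 and Gpx8 had a correlation of 0.755, and 0.491 for the deviations.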

How the data were processed

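Lung RNA was measured by polyA sequencing in 48 mice, 3 in each of 16 groups. The authors aligned reads to mm10 with GSNAP, processed them with SAMtools and deposited FPKM values from Cufflinks for 47561 genes, per the submitters' processing notes and the study's methods. Since FPKM holds no counts, the depth per mouse is unknown, and relative depth, estimated from low values, ran from 0.782 to 1.26 times the median. Differing library make-up moves FPKM: Scgb1a1 took 10.4 to 30.2% of the sum in room air and 1.20 to 7.17% in hyperoxia.

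Values were tested as log2(FPKM + 1) with limma 3.58.1 in R 4.3.3 (empirical Bayes with trend, 1 mean per group, only the mice of the comparison), on genes that reached an FPKM of 1 in 3 or more mice of the fit, with Benjamini-Hochberg adjustment over all genes tested and a threshold of 0.05. Because of the pseudocount of 1, differences of low genes are understated. A gene with a failed estimate in 7 mice was left out. Groups came from the sample labels, and nothing but the mouse numbers says that the 3 mice of a group were raised or exposed separately. Levels of neighbouring genes were compared by exact sign-flip permutation.

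The members, lists and comparisons were chosen with earlier results of these data known. The 14 comparisons were joined by 8 added after values were seen, namely ATG by strain in hyperoxia, sex under ATG and in hyperoxia, and hyperoxia by strain under ATG. The 6 members were named in each comparison, by their values or by the ends of their range, and of each list at most the 4 called genes with the largest differences. For likeness the 3 genes with the highest correlation are named. Sequences came from GENCODE M21, where 47144 genes were matched by identifier, and promoters from RefSeq (GRCm38). Alternatives were a pseudocount of 0.1, a filter of 0.1 FPKM or none, quantile and median ratio scaling, no trend, 1 fit of 48 mice, leaving out each mouse and, added later, leaving out C3HM saline room air mice 1 and 3. The scripts were tested on simulated data.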

Additional observations from a re-analysis of the deposited data

Results flagged for a closer look

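Gpx1 in C3HM saline hyperoxia mouse 9 was 755 FPKM and stood apart from the other 5 C3H saline hyperoxia mice, with a gap of 0.633 of the whole range (above Dixon's 95% critical value for 6 samples). It was the only one of 48 checks to pass, each of 1 gene in 6 mice of the same strain, injection and air. Chance flags about 1 in 20 such checks.

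The remaining results stand here because a response differed between groups by a test of that difference. The response of Gpx3 to hyperoxia was −0.79 on the log2 scale after ATG relative to saline, and that of Gpx8 was 0.45. In ATG mice the response in C3H relative to C57B was 0.46 for Gpx1 and −1.43 for Gpx3, and in saline mice it was 0.73 for Gpx8.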

How the results depend on the processing

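Calls of Gpx2 in hyperoxia, of Gpx3 in C3H ATG mice and of Gpx1 and Gpx3 for strain under ATG held in every alternative run. So did those of Gpx7 and Gpx8 for hyperoxia over all saline mice. Over the called members, 760 values from fits without 1 mouse kept the call and 92 lost it, 227 from other settings kept it and 30 lost it, and none turned its sign. No paired analysis was possible because each mouse has a number of its own. FPKM without counts limits what can be said of low genes.

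The number of members called changed as follows. With quantile scaling it was 4 for hyperoxia over all ATG mice, without Gpx1 and Gpx4. That scaling gave 3 for hyperoxia in saline C57B mice, without Gpx3. Over all saline mice 1 fit of 48 mice gave 4 for hyperoxia, with Gpx4 added. For hyperoxia in saline C3H mice it was 2, without Gpx7, with the 0.1 filter, no filter or no trend. With C3HM saline room air mice 1 and 3 left out it was 1 for that comparison and 0 for ATG by hyperoxia and for sex in saline room air. For ATG by hyperoxia it was also 0 without a filter, and 1 with the 0.1 filter, quantile or median ratio scaling or no trend. For sex in saline room air it was 0 with the 0.1 filter, no filter, quantile scaling or no trend, and for ATG in C57B hyperoxia mice 0 with those and with median ratio scaling. It was 0 for strain by hyperoxia in saline mice with median ratio scaling, 1 for ATG in hyperoxia with either scaling, 1 for strain in saline hyperoxia and 5 for hyperoxia in ATG C3H mice with quantile scaling, where median ratio scaling and 1 fit of 48 mice gave 4, with Gpx7 added.

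Leaving out each mouse gave these numbers of members, with the range of all genes called in brackets. ATG by hyperoxia gave 0 to 2 (243 to 1093 genes). ATG in hyperoxia gave 1 to 3 (443 to 1096), with 1 to 2 in C3H (166 to 861) and 0 to 1 in C57B (3 to 545). Hyperoxia gave 3 to 5 in ATG C3H mice (7225 to 7843) and 1 to 3 in saline C3H mice (5395 to 7007). It gave 3 to 4 over all saline mice (9479 to 10098) and in ATG C57B mice (8496 to 9188). Strain by hyperoxia under ATG gave 2 to 3 (1648 to 2338). Sex gave 0 to 1 in hyperoxia (26 to 1407) and 0 to 3 in saline room air (20 to 3640). Strain by sex in saline room air gave 0 to 2 (0 to 2741), and strain by hyperoxia in saline mice 1 to 2 (1400 to 3242). Strain gave 1 to 4 in saline hyperoxia (3246 to 4733) and 0 to 1 in saline room air (1306 to 4021).

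Some uncalled differences turned sign. Without C3HM mice 1 and 3 those of Gpx2 were −0.455 for strain by hyperoxia and −0.324 for sex by hyperoxia in saline mice, 0.480 for sex and 0.0486 for strain in saline room air, −0.111 for ATG and −0.676 for ATG by strain in room air. Quantile scaling gave −0.0516 for Gpx1 and −0.00976 for Gpx4 in saline hyperoxia, −0.0135 for Gpx1 in saline C3H mice, −0.0929 for Gpx1 in ATG C57B mice, −0.0199 for Gpx1 by sex in ATG room air, 0.0324 for Gpx1 by strain in saline room air (0.106 with median ratio scaling), −0.0543 for Gpx2 in ATG by strain in room air (−0.0156) and −0.0122 for Gpx2 in ATG by hyperoxia (−0.0368, and −0.01405 with pseudocount 0.1). Median ratio scaling gave −0.00205 for Gpx7 in strain by hyperoxia under ATG. The cause was not tested.

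Without 1 mouse, Gpx2 ran from −0.174 to 0.175 for ATG by hyperoxia, −0.0616 to 0.636 for strain by hyperoxia in saline mice, −0.283 to 0.414 for ATG by strain in room air and −0.610 to 0.0874 for sex in saline room air. Gpx3 ran from −0.177 to 0.0461 in saline C3H mice, Gpx7 from −0.0406 to 0.205 for strain by hyperoxia under ATG, and Gpx1 from −0.0640 to 0.0523 for strain in saline room air.

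Over all genes, 1 fit of 48 mice moved the count of calls by over 1.5 times, to 2994 from 1880 for strain by hyperoxia in saline mice, 306 from 6 for sex by hyperoxia, 2982 from 1832 for strain and 1915 from 104 for sex in saline room air, 748 from 0 for strain by sex, 457 from 137 for ATG in C57B hyperoxia mice, 234 from 66 for ATG by strain in hyperoxia and 621 from 108 for sex in hyperoxia. Other settings gave 2 for sex by hyperoxia, 5 from 3 for ATG in room air, 313 from 470 for ATG by hyperoxia, 2 from 0 for ATG by strain in room air, 30 to 60 for sex in saline room air, 1 to 5 for strain by sex, 26 to 66 for ATG in C57B hyperoxia mice and 49 to 184 for sex in hyperoxia. Median ratio scaling moved the share of calls that were higher from 75.6% to 46.5% for strain by hyperoxia in saline mice, from 71.1% to 41.0% for ATG in hyperoxia, from 56.4% to 32.8% for ATG by hyperoxia and from 66.9% to 48.3% for hyperoxia in saline C3H mice.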
